A study of Arabidopsis thaliana with 15 samples.

Results

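Tubulin genes were followed through 48 h of leaf disk culture by the probe sets whose single annotated gene symbol starts with TUA (alpha tubulin) or TUB (beta tubulin) and a digit. The rule used names only and found 7 of 22746 probe sets, each for its own gene among 13350 genes named: 2 alpha members, TUA1 (AT1G64740) and TUA6 (AT4G14960), and 5 beta members. The beta members were TUB1 (AT1G75780), TUB5 (AT1G20010), TUB6 (AT5G12250), TUB7 (AT2G29550) and TUB9 (AT4G20890). All 7 passed the filter on dim signals, which kept 17829 probe sets. Of 15 TUA and TUB genes in the gene table, TUA3 and TUA5 share 1 probe set, which is given apart, and 6 genes had no listed probe set and were not analysed here (TUA2, TUA4, TUB2, TUB3, TUB4 and TUB8).

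All samples came from Arabidopsis thaliana of the Col-0 ecotype. Disks 1 mm across were punched from rosette leaves of plants grown for 25 days under continuous light. The medium held 10 µM bikinin, an inhibitor of the GSK3-like kinases that hold back brassinosteroid signalling, with a synthetic auxin (2,4-D at 1.25 mg/L) and a cytokinin (kinetin at 0.25 mg/L), and the samples were titled by differentiation time. RNA was measured on 1-colour arrays every 12 h from 0 to 48 h, on 3 arrays per time. There were no disks cultured without the compounds, so the compounds, cutting, culture and elapsed time cannot be told apart. The titles number replicates without saying that they were separate cultures, and the p-values therefore measure a spread that may be technical.

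Alpha and beta tubulin join into the dimers from which microtubules are built. In plant cells, microtubules beneath the plasma membrane guide the complexes that lay down cellulose, and in developing xylem they mark where the secondary wall thickens. In dividing cells the same subunits form the preprophase band, the spindle and the phragmoplast, the array that builds the new wall. Each family is encoded by several genes whose proteins are very similar, and whether a probe set here also binds transcripts of a neighbouring family member was not tested.

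Each array had been scaled by the submitters to the same trimmed mean signal (500 after trimming 2% at each end). The 0 h arrays stood apart from the rest: within a time the arrays correlated at 0.886 to 0.954, but 0 h arrays with later ones only at 0.562 to 0.707. Over all kept probe sets the median log2 change from 0 h was -0.03, 0.07, 0.18 and 0.22 at the 4 later times. The main fit did not remove this shift, so its changes given below contain it. The small number of arrays limits the precision. Signals below are linear array units and are compared only within a probe set; folds are ratios of geometric means; log2 changes carry the standard error of the limma fit (n = 3 arrays per time). Each p from limma's moderated test was adjusted by Benjamini-Hochberg over 17829 probe sets, with 0.05 as the threshold for a call. In RNA from whole disks, fewer cells of a type and less RNA per cell cannot be told apart.

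The 2 alpha members behaved differently from each other. TUA1, which is known mainly from pollen, passed the test in no comparison. Its signals were 533, 413 and 381 at 0 h, 306, 346 and 549 at 12 h and 373, 342 and 394 at 24 h. They were 386, 401 and 341 at 36 h and 363, 392 and 380.5 at 48 h. The arrays of all later times overlapped those of 0 h, and the highest single value, at 12 h, came from replicate 3. The log2 changes against 0 h lay between -0.25 and -0.18 with an SE of 0.23, and at 48 h the 95% interval of the change was -0.70 to 0.28.

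TUA6, known for its expression in vegetative organs and as the alpha tubulin of a widely used microtubule reporter, was called as rising from 24 h on. Its signals were 2603, 2215 and 3799 at 0 h and 5019, 5273 and 3511 at 12 h, where the groups overlapped through replicate 3. They were 10578, 8166 and 5528.5 at 24 h, 10044.5, 9411 and 8413 at 36 h and 10521, 8191.4 and 6611 at 48 h, so every array from 24 h on lay above every array of 0 h and 12 h. The log2 change against 0 h was 0.69 ± 0.29 at 12 h (adjusted p = 0.0709, not called). It was called at 24 h with a 2.79-fold rise (log2 change 1.48 ± 0.29, adjusted p = 0.00112), at 36 h with 3.31-fold (adjusted p = 3.15e-04) and at 48 h with 2.96-fold (adjusted p = 0.000638). Whether it was called at 12 h depended on the arrays and the fit. Without 0 h replicate 3 the log2 change was 0.92 and was called, as was 0.88 without 12 h replicate 3. Array weights gave 0.87, also called (adjusted p = 0.025).

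The probe set shared by TUA3 and TUA5, which are neighbouring loci (AT5G19770 and AT5G19780), was not compared with TUA6 in a test. Its log2 change against 0 h was 0.42 ± 0.30 at 12 h (adjusted p = 0.289). It rose 2-fold by 24 h (adjusted p = 0.0161), 2.47-fold by 36 h (adjusted p = 0.0029) and 2.31-fold by 48 h (adjusted p = 0.00469). Which of the 2 genes gave the signal cannot be told apart.

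**Figure D1:**
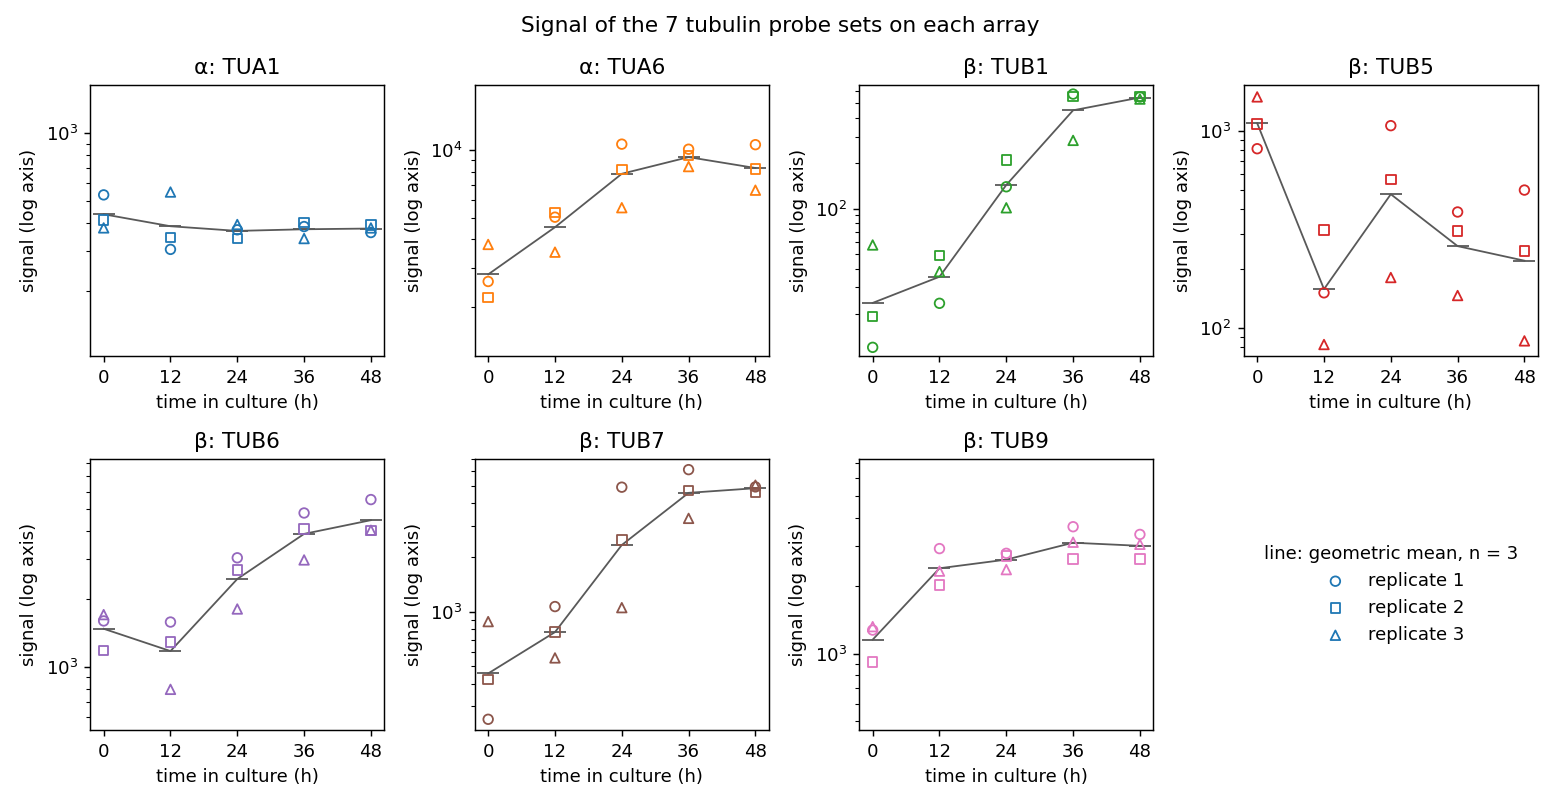
Signal of each tubulin probe set on each of the 15 arrays (vertical log axis, array units; horizontal axis, hours in culture). Circles, squares and triangles are replicates 1, 2 and 3, and the line joins geometric means of 3 arrays; TUA1 stays level, TUB9 has its step by 12 h, TUB1 and TUB7 climb until 36 h, and TUB5 lies lower at 12 h than at 0 h with widely spread replicates from then on.

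TUB9 was the 1 beta member called as rising at 12 h. TUB9, also known from pollen, had signals of 1271, 916 and 1316 at 0 h and 2920.5, 2012 and 2320.3 at 12 h. All 12 h arrays lay above all 0 h arrays, the rise was 2.07-fold (log2 change 1.05 ± 0.22, adjusted p = 0.00185), and it was called without any 1 of the 6 arrays. Whether TUB9 rose before the other members was not tested, and without 0 h replicate 3 the 12 h log2 changes of TUB1 and TUB7 were 1.21 and 1.24. The later signals were 2783, 2711 and 2356 at 24 h, 3651, 2621 and 3117 at 36 h and 3375, 2632 and 3051.5 at 48 h. The rise against 0 h was 2.26-fold, 2.69-fold and 2.61-fold at these times, each called (adjusted p = 0.000745, 1.54e-04 and 2.00e-04). Arrays of 24 h overlapped those of 12 h, and the log2 change from 12 to 48 h was 0.33 ± 0.22 (adjusted p = 0.293).

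TUB1 and TUB7 had the largest measured rises of the family. TUB1, a beta tubulin known for expression in roots and for repression by light, had signals of 12, 19.3 and 57.3 at 0 h and 23.5, 48.9 and 38.2 at 12 h. Of these, 0 h replicates 1 and 2 and 12 h replicate 1 lay under 30.7, the signal at which the filter on dim probe sets was set, so folds against these times are uncertain in size. The signals were 139, 209 and 101 at 24 h, 574, 553.5 and 283 at 36 h and 549, 553 and 532 at 48 h. The 0 h and 12 h arrays overlapped each other, all 24 h arrays lay above both, and all 36 h and 48 h arrays lay above those of 24 h. The log2 change against 0 h was 0.58 ± 0.51 at 12 h (adjusted p = 0.383), and it was called from 24 h on. The rise was 6.06-fold at 24 h (log2 change 2.60, adjusted p = 0.00105) and 18.9-fold at 36 h (log2 change 4.24 ± 0.51, adjusted p = 2.32e-05). At 48 h it was 23-fold (log2 change 4.52, adjusted p = 1.45e-05). With the filter's signal of 30.7 in place of the lower 0 h mean of 23.7, values added after the data were seen, the 3 folds were 4.67, 14.6 and 17.7. Without 0 h replicate 1 they were 4.32, 13.5 and 16.4, with a log2 change of 0.087 at 12 h. Without 0 h replicate 3, the brightest of its time, they were 9.43, 29.5 and 35.8, and the log2 change at 12 h was 1.21 and was called.

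TUB7 had signals of 254, 421.6 and 882 at 0 h and 1069, 774 and 555 at 12 h, which overlapped through replicate 3. Its signals were 4904, 2493 and 1054 at 24 h, where replicate 3 alone lay within the range of 12 h. They were 6134.5, 4699 and 3293.5 at 36 h and 4921, 4581 and 5030.5 at 48 h, with all arrays above those of 0 h and 12 h. TUB7 changed by 0.76 ± 0.54 on the log2 scale at 12 h (adjusted p = 0.27), which was not called. It then rose 5.15-fold by 24 h (log2 change 2.36 ± 0.54, adjusted p = 0.00278). The rise was 10-fold by 36 h (adjusted p = 2.13e-04) and 10.6-fold by 48 h (adjusted p = 1.80e-04), larger than 95.3% and 94.9% of kept probe sets. The replicates were 4.65-fold apart at 24 h and 1.1-fold apart at 48 h.

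TUB6, often used as a reference gene in expression studies of this species, was called as rising from 36 h on. Its signals were 1600.3, 1181 and 1707 at 0 h and 1583, 1293 and 796 at 12 h, with overlapping groups. They were 3049.6, 2687.4 and 1808 at 24 h, 4819.5, 4101 and 2984 at 36 h and 5526, 4023 and 4041 at 48 h. Every array of 24 h lay above every array of 0 h, but the log2 change of 0.73 ± 0.31 was not called (adjusted p = 0.0643); without 24 h replicate 3 it was 0.95 and was called. TUB6 was called at 36 h with a 2.63-fold rise (log2 change 1.40 ± 0.31, adjusted p = 0.00196) and at 48 h with 3.03-fold (adjusted p = 0.000759).

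TUB5 was the 1 member that fell. Its signals were 811, 1082.5 and 1485 at 0 h and 151, 313.4 and 82.3 at 12 h, and all 12 h arrays lay below all 0 h arrays. At 12 h the signal was 6.95-fold lower (log2 change -2.80 ± 0.75, adjusted p = 0.00837), and the fall was called without any 1 of the 6 arrays. At 24 h the signals were 1061, 566 and 180.0, which overlapped both earlier times, and the log2 change against 0 h of -1.20 ± 0.75 was not called (adjusted p = 0.201). It was -0.49 without 24 h replicate 3 and -1.77 without 24 h replicate 1. The signals were 387, 311 and 146 at 36 h and 500.2, 245 and 85.9 at 48 h, all below those of 0 h. TUB5 was 4.2-fold lower at 36 h (adjusted p = 0.0314) and 4.98-fold lower at 48 h (adjusted p = 0.0181) than at 0 h. Replicate 3 was the highest array at 0 h and the lowest at each later time, and the replicates were 5.89-fold apart at 24 h and 5.82-fold apart at 48 h. Leaving out 1 array ended the call at 36 h for 4 of 6 arrays, replicates 2 and 3 of 0 h (log2 changes of -2.08 and -1.85) and of 36 h (-2.20 and -1.66). At 48 h it was lost without replicate 3 of 0 h (-2.10) or of 48 h (-1.64, a 3.12-fold difference), while the difference was 7.53-fold without 48 h replicate 1. The call at 36 h was also lost with array weights (adjusted p = 0.0587). Without all arrays called replicate 3 the calls at 36 h and at 48 h were both lost (adjusted p = 0.0511 and 0.0528).

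Single arrays of a time moved several members at once. At 0 h, replicate 3 was the highest of its time for 6 of the 7 members and the lowest for TUA1. At 24 h the array of that number was the lowest for 6 of 7, and at 36 h the third array, which carries no number in its title, was the lowest for 6 of 7. Without all 5 arrays called replicate 3, an alternative added after the data were seen, 4 members were called at 12 h against 0 h, of which TUA6, TUB7 and TUB9 rose and TUB5 fell.

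**Figure D2:**
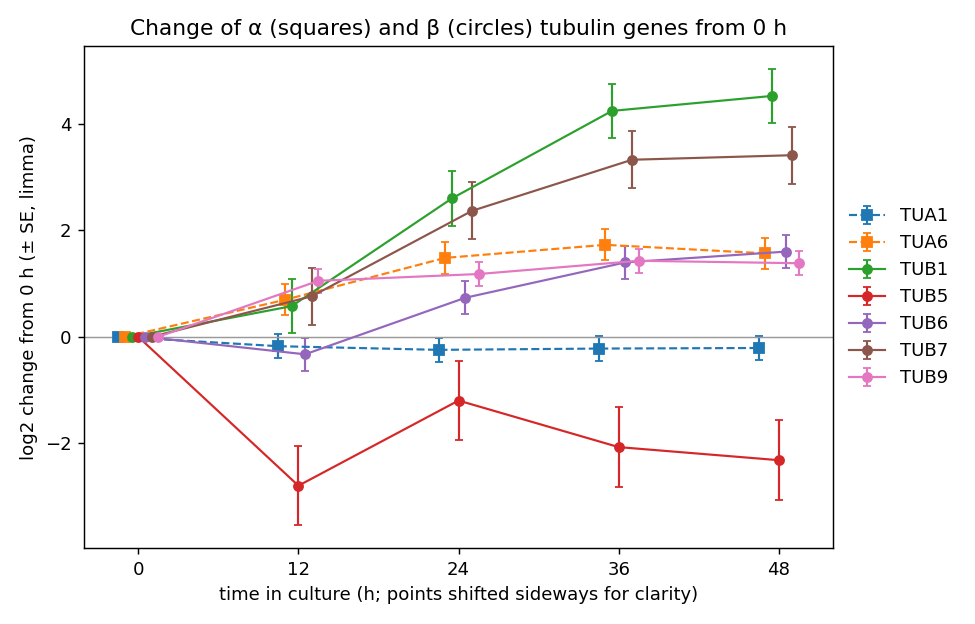
Log2 change of each tubulin gene from 0 h (vertical axis) against hours in culture, with alpha members as squares on dashed lines and beta members as circles on solid lines; bars are ± SE of the limma fit, n = 3 arrays per time. At 48 h TUB1 (4.52) and TUB7 (3.41) lie highest, TUA6, TUB6 and TUB9 lie between 1.38 and 1.60, TUA1 lies near 0 and TUB5 at -2.32.

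Counted over the family, 1 member rose (TUB9) and 1 fell (TUB5) at 12 h against 0 h, where 45.6% of all kept probe sets were called, 23.7% rising and 21.9% falling. Without 0 h replicate 3 the count at 12 h was 4, with TUA6 and TUB1 added. At 24 h 4 members rose and 0 fell, against 49.6% called, 27.4% rising and 22.2% falling. At 36 h 5 rose and 1 fell, against 56.2% called, 32.3% rising and 23.9% falling. The same 5 members rose at 48 h and TUB5 again was lower, against 57.0% called, 33.3% rising and 23.7% falling. Changes from 0 h were therefore common on these arrays, and a call in a tubulin gene is not by itself unusual. The number of members with no overlap between the arrays of a time and those of 0 h was 2, 5, 6 and 6 in the order of the later times, where 51.0%, 56.1%, 61.3% and 62.1% of kept probe sets had none. All the rises at 36 h and 48 h, and the 4 at 24 h, were called without any 1 array.

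Between the families, 1 of 2 alpha and 4 of 5 beta members rose by 36 h and by 48 h, and by 24 h it was 1 of 2 and 3 of 5. The median log2 change against 0 h at 48 h was 0.68 over the 2 alpha members, with a range of -0.21 to 1.57. Over the 5 beta members it was 1.60, with a range of -2.32 to 4.52, and over all kept probe sets it was 0.22. At 12 h the medians were 0.26, 0.58 and -0.03 in the same order. With 2 alpha members measured, the families were described and not tested against each other. The beta range enclosed both alpha values at each time against 0 h. The probe set shared by TUA3 and TUA5, also alpha genes, is not in these counts and medians. It was called as rising at 24 h, 36 h and 48 h, with log2 changes of 1.00, 1.31 and 1.21.

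Timing among the 5 members that rose was described, and not tested, by the share of each gene's own 48 h log2 change reached by an earlier time. TUB9 had reached 76.1% by 12 h, TUA6 44.4%, TUB7 22.3% and TUB1 12.7%, whereas TUB6 was at -20.6%. When 1 array was left out, the 12 h share ranged from 65.6% to 85.1% for TUB9 and from 37.4% to 56.1% for TUA6. It ranged from 11.3% (without 0 h replicate 1) to 31.8% for TUB7, from 2.15% to 23.5% (without replicates 1 and 3 of 0 h) for TUB1, and from -34.1% (without 0 h replicate 2) to -2.94% (without 12 h replicate 3) for TUB6. By 24 h TUA6 had reached 94.6% and TUB9 85.3%, while TUB7 stood at 69.3%, TUB1 at 57.4% and TUB6 at 45.8%. Leaving out 1 array gave 24 h shares of 80.7% to 111% for TUA6 and 79.8% to 90.8% for TUB9. The shares were 53.7% to 86.2% for TUB7, 51.4% to 63.0% for TUB1 and 36.1% to 59.6% for TUB6. Each of these ranges overlapped that of the next member, so their order at 24 h is uncertain. By 36 h the shares lay between 87.4% for TUB6 and 110% for TUA6. When the 5 times of each gene were put in order of level only 1 of 28 pairs of neighbours differed in the test, TUB9 at 0 h and 12 h. That order is by level and not by time, so the levels climb in it for every member. No neighbouring pair passed the test for any member other than TUB9.

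The steps of 12 h after the first were tested directly. From 12 to 24 h 0 of 7 members were called, against 1.23% of kept probe sets (0.993% rising and 0.241% falling), or 2.41% with the replicate number as a block. The log2 change over this step was 2.02 ± 0.51 for TUB1 (adjusted p = 0.0807), 1.60 ± 0.54 for TUB7 (0.168), 1.06 ± 0.31 for TUB6 (0.118) and 0.79 ± 0.29 for TUA6 (0.211). These 4 had an unadjusted p under 0.05, and for TUA6, TUB1 and TUB6 every 24 h array lay above every 12 h array, as it did for 13.8% of kept probe sets. With the replicate number as a block, the limma adjusted p of this step was 0.0608 for TUB1 and 0.0566 for TUB6. It was 0.154 for TUB7 and 0.161 for TUA6, and no member was called. From 24 to 36 h 0 members were called, against 0.112%, and TUB1 had the largest difference (1.64 ± 0.51, adjusted p = 0.221, the 1 member with an unadjusted p under 0.05). From 36 to 48 h limma called 0 of 7 members and 0 of all kept probe sets, of which 642 had an unadjusted p under 0.05, none of them a tubulin member. The differences over that last step had sizes from 0.01 for TUA1 to 0.28 for TUB1, and for 6 of 7 members, all but TUB6, the sign turned under at least 1 alternative.

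**Figure D3:**
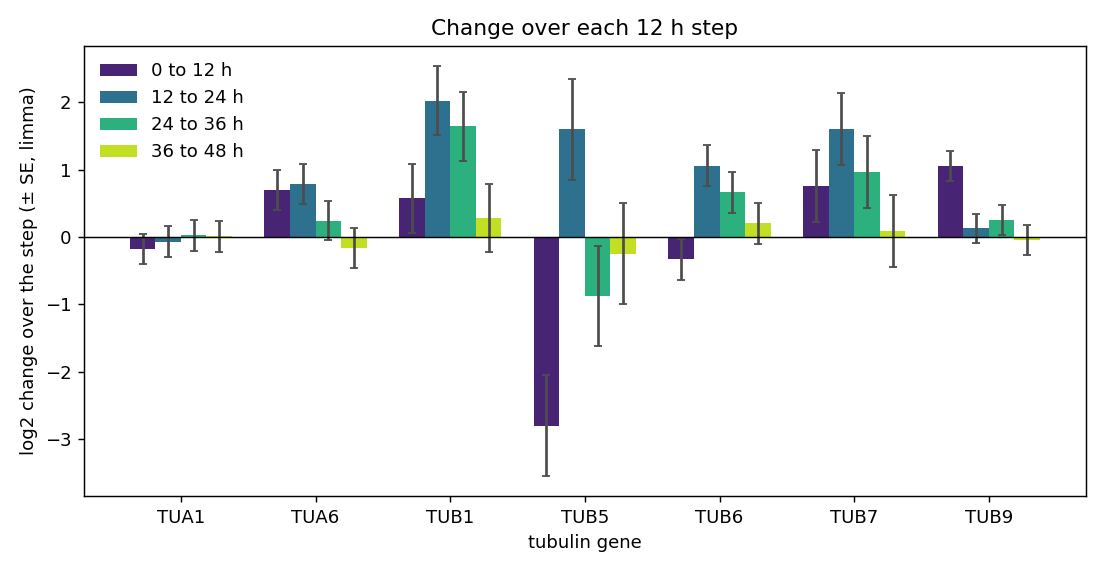
Log2 change of each tubulin gene over the 4 successive steps of 12 h (vertical axis, bars grouped by gene, error bars ± SE of the limma fit). The first step holds the fall of TUB5 (-2.80) and the rise of TUB9 (1.05), the steps from 12 to 24 h and from 24 to 36 h hold the largest differences of TUB1 (2.02 and 1.64), and the last step lies within ± 0.28 for every member.

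Over spans of 24 h and more between later times, part of the family was called again. From 12 to 36 h TUA6, TUB1, TUB6 and TUB7 rose and 0 members fell, against 17.7% of kept probe sets called, 11.9% rising and 5.88% falling. TUB1 rose 12.7-fold (adjusted p = 0.00072), TUB7 5.92-fold (0.00663), TUB6 3.31-fold (0.00285) and TUA6 2.04-fold (0.0297). From 12 to 48 h the same 4 rose, against 26.4% called, 16.5% rising and 9.87% falling, by 15.4-fold for TUB1, 6.28-fold for TUB7, 3.81-fold for TUB6 and 1.83-fold for TUA6 (adjusted p = 2.53e-04, 0.00365, 0.00087 and 0.0448). For TUA6 both calls were fragile. The call from 12 to 36 h was lost with median centring (adjusted p = 0.0791), the replicate block (0.0649) and without all arrays of number 3 (0.0632). That from 12 to 48 h was lost with no filter (0.0681), median centring (0.143), only the 2 times compared (0.0764) and without number 3 (0.0587). At 36 h the arrays that ended it when left out were replicate 3 of 12 h (log2 change 0.85) and replicates 1 and 2 of 36 h (0.97 and 1.02), and the one at 48 h was lost without any of the 12 h arrays (0.95, 0.98 and 0.69 for replicates 1 to 3) or without 48 h replicate 1 (0.70) or 2 (0.88). From 24 to 48 h TUB1 alone was called, against 6.41% of kept probe sets, or 9.77% with the replicate number as a block. Its rise was 3.8-fold (log2 change 1.93 ± 0.51, adjusted p = 0.0436), and the call was lost without any 1 of the 6 arrays, with log2 changes of 1.67 to 2.20.

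Whether 2 members had different courses was tested on the log2 difference of their signals within each array, by an exact permutation test of the one-way F over the 5 times, with p adjusted over the 21 pairs. All 1401400 ways to split the 15 arrays into 5 groups of 3 were enumerated; the pairs share members and arrays, and this test was chosen after the data had been seen. It shuffled arrays freely and took no account of the replicate numbers, which were read as pairs for 12 h, 24 h and 48 h; a blocked version was not run. Of the 21 pairs, 18 differed: the 1 pair of alpha members, 8 of 10 pairs of an alpha and a beta member, and 9 of 10 pairs of beta members. The course of TUA1 differed from that of TUA6 (exact permutation adjusted p = 0.0146), and that of TUB1 from that of TUB5 (0.000847), the pair farthest apart with a root mean square difference of 2.55 log2 units between centred courses. TUA6 and TUB6, whose 48 h changes were 0.03 apart, also differed (0.00127), and at 12 h the change of TUA6 was 1.02 above that of TUB6.

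For 3 pairs the exact permutation test found no difference at this size of study, which does not show that they moved alike. TUA6 and TUB9, an alpha and a beta member, were the closest pair, with a root mean square difference of 0.36 and an adjusted p of 0.129. TUB1 and TUB7 had 0.72 and an adjusted p of 0.106, with a 48 h log2 change 1.11 higher in TUB1. TUA1 and TUB5 had 1.30 and an adjusted p of 0.113, with TUB5 spread widely between replicates. When any 1 array was left out, the adjusted p ranged from 0.0433 to 0.376 for TUA6 and TUB9, from 0.0283 to 0.170 for TUB1 and TUB7, and from 0.0516 to 0.245 for TUA1 and TUB5. Each of the other 18 pairs stayed past the threshold without any 1 array.

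**Figure D4:**
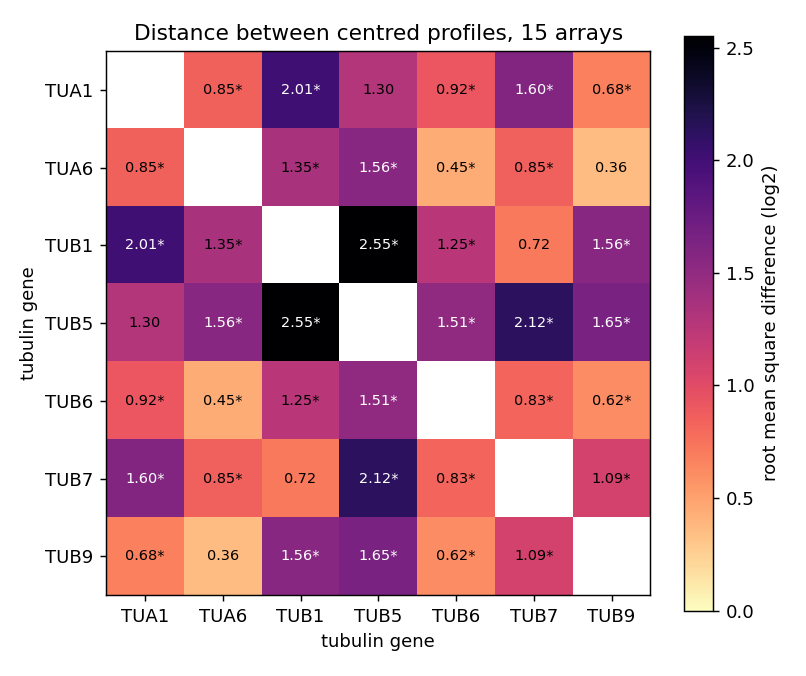
Root mean square difference between the centred log2 courses of each pair of tubulin genes over 15 arrays (colour and printed value, log2 units); an asterisk marks the 18 of 21 pairs whose courses differed at an adjusted p under 0.05 in the exact permutation test. TUA6 with TUB9 (0.36) is the closest pair and TUB1 with TUB5 (2.55) the farthest apart.

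Genes with courses most like those of the 2 members of largest measured rise were found by the same distance among 10004 other kept probe sets with 1 gene. Nearest to TUB1 were AT5G23400 (root mean square difference 0.43), PID2 (0.46), a kinase gene related to PINOID, and 3xHMG-box2 (0.54), which encodes a protein that binds mitotic chromosomes. Their log2 changes at 48 h against 0 h were 4.65, 4.17 and 4.77. Nearest to TUB7 were AT4G39630 (0.28), AT5G27550 (0.32) and AT1G79640 (0.33), with 48 h log2 changes of 3.64, 3.38 and 2.76. These are distances over the same 15 arrays and were not tested.

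Proteins that fold tubulin or act on microtubules were read from a list matched to the annotation, which held a probe set for 8 genes, all kept. Most listed names, some of them synonyms, had no match. Matches were 2 of 12 names for tubulin folding, 1 of 10 for bundling and 1 of 19 for plus end and growth. They were 2 of 22 for severing and array order, 2 of 30 for kinesins and 0 of 18 for nucleation. The counts below therefore cover a small part of the list. Of the 8 genes, 1 rose and 1 fell at 12 h against 0 h, 4 rose and 1 fell at 24 h, and 6 rose and 0 fell at both 36 h and 48 h. Over all kept probe sets 23.7% rose and 21.9% fell at 12 h, 27.4% and 22.2% at 24 h, 32.3% and 23.9% at 36 h, and 33.3% and 23.7% at 48 h. The median log2 changes were -0.08, 0.57, 1.1 and 1.16 at the 4 times. POR, which encodes tubulin folding cofactor C, rose 2.02-fold by 12 h (adjusted p = 0.00369), from a mean signal of 165 to 333, and PFI, for cofactor E, rose 1.78-fold by 36 h (adjusted p = 0.00337). SPR1, for a protein that follows growing microtubule ends, rose 1.79-fold by 24 h and 2.14-fold by 36 h (adjusted p = 0.00174 and 2.22e-04). Each of the 6 rises at 36 h and 48 h was called without any 1 array, and that of KINESIN-13A at 24 h (log2 change 0.69 ± 0.23), a motor gene, was lost without 0 h replicate 1 (0.60) or 24 h replicate 1 (0.49). The KINESIN-13A call at 24 h was also lost with median centring (adjusted p = 0.0762), only the 2 times compared (0.0916), array weights (0.0934) and without all arrays of number 3 (0.0647).

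KINESIN-12B, for a motor of the phragmoplast, had the largest measured rise of the list. Its mean signal was 16.2 at 0 h, with arrays from 3.71 to 48.9, and 374 at 36 h, with arrays from 240 to 588. The rise was 7.56-fold by 24 h (adjusted p = 0.0101, with overlapping arrays), 23.1-fold by 36 h (4.96e-04) and 23.8-fold by 48 h (4.61e-04), from a 0 h level under the filter's signal. Without 0 h replicate 1 the 3 folds were 3.62, 11.1 and 11.4, and without 0 h replicate 3 they were 13.2, 40.2 and 41.4. Over the filter's signal they were 3.98, 12.2 and 12.5, and the call at 24 h was lost with only the 2 times compared (adjusted p = 0.0642). TON1B, for a protein needed for the preprophase band, rose 2.48-fold by 36 h and 3.26-fold by 48 h (adjusted p = 0.000722 and 1.04e-04), after a log2 change of 0.23 at 24 h (adjusted p = 0.464). From 24 to 48 h TON1B rose 2.78-fold (adjusted p = 0.00613), a call lost without all arrays of number 3 (0.0673).

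ATMAP65-6, of the family that bundles microtubules, was the 1 gene of the list that fell. It was 5.28-fold lower at 12 h (adjusted p = 4.90e-04) and 2.81-fold lower at 24 h (adjusted p = 0.0102). Its mean signal went from 443 at 0 h to 83.9 at 12 h and 538 at 48 h, and at 36 h and 48 h it did not differ from 0 h in the test. From 12 h it rose 4.59-fold by 36 h and 6.41-fold by 48 h (adjusted p = 0.00416 and 0.000783). Its rise from 24 to 48 h (3.41-fold, adjusted p = 0.0277) was lost without 24 h replicate 2 (log2 change 1.91) or 3 (1.44), or 48 h replicate 1 (1.43) or 3 (1.64). That call was also lost with only the 2 times compared (adjusted p = 0.0907) and without all arrays of number 3 (0.213). Without number 3 the fall at 24 h lost its call too (0.15). From 12 to 36 h and from 12 to 48 h 6 of the 8 rose, with SPR1 lost without 36 h replicate 1 (log2 change 0.71) and 48 h replicate 1 (0.63), where 11.9% and 16.5% of kept probe sets rose. Both SPR1 calls were also lost with median centring (adjusted p = 0.113 and 0.129) and only the 2 times compared (0.0631 and 0.0555). The PFI call from 12 to 36 h was lost with only the 2 times compared (0.0554). Without all arrays of number 3, SPR1, PFI and KINESIN-13A lost both calls. Over the 3 later steps of 12 h 0 of the 8 were called, against 1.23%, 0.112% and 0% of kept probe sets. KINESIN-12B rose 11.1-fold from 12 to 36 h (adjusted p = 0.012), a call lost without 36 h replicate 1 (log2 change 3.15).

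The SPIRAL1-like genes, relatives of SPR1 that were added after the data were seen, did not move as one group. SP1L4 fell at every time against 0 h, 3.56-fold at 12 h (adjusted p = 0.00913) and 3.97-fold at 36 h (adjusted p = 0.00443), the latter 2.33-fold without 36 h replicate 3. Its call at 24 h was lost without 24 h replicate 3 (log2 change -1.33), and its call at 48 h (adjusted p = 0.0337) without any 1 of the 6 arrays (-1.45 to -1.21). SP1L3 rose 1.4-fold at 36 h and 1.41-fold at 48 h (adjusted p = 0.0315 and 0.0295), and SP1L2 fell at 36 h (log2 change -0.82, adjusted p = 0.046). Each of these 3 calls was lost without any 1 of 4 arrays: 0 h replicates 1 and 2 and 36 h replicates 1 and 2 for SP1L3 at 36 h (log2 changes from 0.41), 0 h replicates 1 and 2 and 48 h replicates 2 and 3 for SP1L3 at 48 h (from 0.45), and 0 h replicates 1 and 3 and 36 h replicates 1 and 2 for SP1L2 (up to -0.48). The SP1L3 calls at 36 h and 48 h were also lost with median centring (adjusted p = 0.189 and 0.235) and only the 2 times compared (0.121 and 0.114). So they were without all arrays of number 3 (0.086 and 0.141), and that at 36 h with no filter (0.0508). The SP1L2 call was lost with no filter (0.0655), an offset of 16 (0.0538) and only the 2 times compared (0.15). The intensity trend (0.0945) and leaving out number 3 (0.12) ended it too. A further gene of this group was below the filter.

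**Figure D5:**
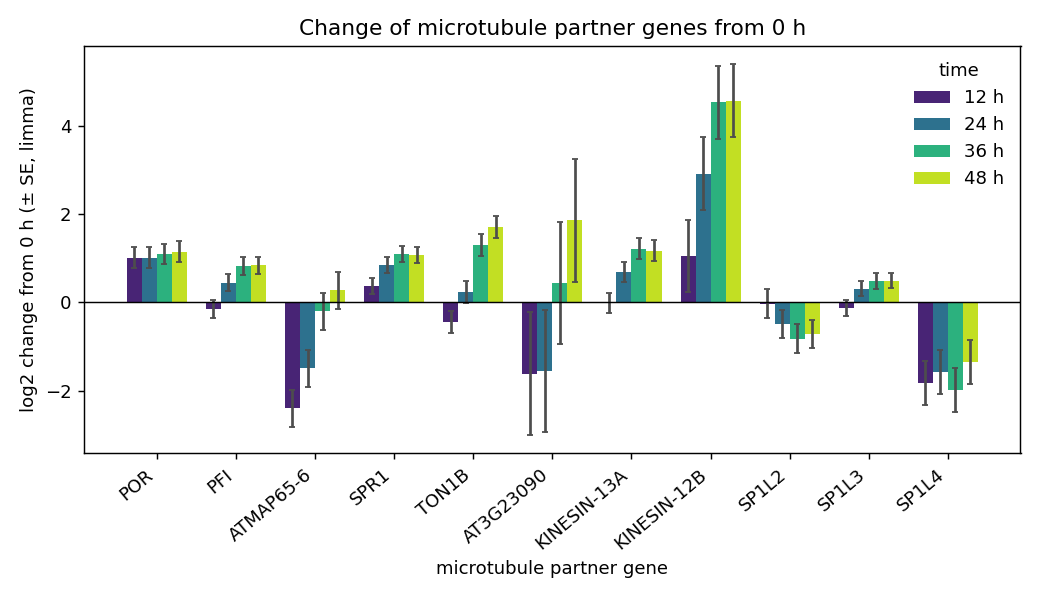
Log2 change from 0 h (vertical axis) at 12, 24, 36 and 48 h of genes for proteins that fold tubulin or act on microtubules, with bars for ± SE of the limma fit, n = 3 arrays per time; the 3 rightmost genes are SPIRAL1-like genes added after the data were seen. KINESIN-12B reaches 4.57 at 48 h and TON1B 1.70, and ATMAP65-6 lies at -2.40 at 12 h and near 0 from 36 h on.

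Markers of cell states moved over the same hours, and their part in the tubulin results was not tested. Their counts against 0 h are to be read beside the 45.6%, 49.6%, 56.2% and 57.0% of kept probe sets called at the 4 later times. Of 6 measured genes of dividing cells (the Aurora kinase genes AUR1, AUR2 and AUR3, the ubiquitin-conjugating enzyme genes UBC19 and UBC20, and the spindle checkpoint gene BUB3.1), 0 were called at 12 h, 4 rose by 24 h and 6 rose by 36 h and 48 h. Their summed signal was 1775 to 2345 at 0 h and 1919 to 2012 at 12 h. At 24 h it was 8976, 5144 and 2285 on replicates 1, 2 and 3, a descending order. TUA6, TUB5, TUB6, TUB7 and TUB9 shared this order, as did 25.2% of kept probe sets. The summed signals of the photosynthesis genes (12353, 9964.5 and 7271) and of the phloem genes (905, 707 and 525), described below, shared it as well. TUA1, TUB1 and the sums of the xylan genes and of the guard cell and epidermis genes did not. The sum of the dividing-cell genes was 7338 to 17434 at 36 h and 11444 to 12897 at 48 h. Of 4 measured genes of xylan synthesis, used as markers of the secondary wall of xylem, 0 were called at 12 h. By 24 h 1 rose, and by 36 h and 48 h all 4 rose. The 1 called at 24 h was IRX15 (limma adjusted p = 0.0384), with arrays that overlapped those of 0 h. Its mean signals of 6.06 at 0 h and 28.5 at 24 h both lay under the filter's signal, so this rise is uncertain. The summed signal of the 4 xylan genes was 781 to 915 at 0 h, 651 to 735 at 12 h and 767 to 1154 at 24 h. It was 2027 to 4343 at 36 h and 3679 to 5067 at 48 h.

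All 6 measured photosynthesis genes of the leaf mesophyll fell at all 4 times, from a summed signal of 144120 or more at 0 h to between 2762 and 12353 on the later arrays. The 0 h arrays thus carried the strong photosynthesis signal of leaf tissue. Of 4 measured genes of guard cells and epidermis 2 passed the filter, MUTE and SPCH being dim; 1 fell by 24 h and both by 36 h and 48 h, and the summed signal of the 4 was 523 to 603 at 0 h, 299.5 to 559 at 12 h and 91.0 to 172 at 48 h. Of 2 phloem genes, 1 rose (OPS) and 1 fell (SWEET11) at every time. No marker was at 0 on all arrays of a time.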

How the data were processed

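Affymetrix 1-colour arrays were hybridised with biotin-labelled cRNA of 15 samples, 3 per time, per the labels' protocols. Linear intensities were deposited; the submitters' processing notes name GCOS and MAS5, without a version, and a genome build was not given in the sources used here. Equal scaling of the arrays would hide a change shared by most transcripts.

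After 64 control probe sets were left out, intensities were taken to log2 with no offset. Dim probe sets were dropped: 1 of the 5 mean log2 signals had to reach percentile 30 of such means, which is a signal of 30.7. limma 3.58.1 in R 4.3.3 was fitted to 5 group means over all 15 arrays (10 residual degrees of freedom), with a two-sided moderated test and Benjamini-Hochberg adjustment over 17829 probe sets. Data of 17829 probe sets were simulated, with 2-, 4- and 8-fold changes planted in 67, 67 and 66 of them per comparison. The fit recovered 13.4%, 70.1% and 78.8% of these for 36 h against 0 h, and 19.4%, 52.2% and 81.8% for 24 h against 12 h. Of the calls, 3.6% and 7.3% were false. In the measured data 10025 probe sets were called at 36 h against 0 h, far more than were planted. The adjusted threshold depends on that number, so the recovery does not give the power of the measured comparison.

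Genes were named through the platform annotation (13513 probe sets with 1 gene) and the TAIR10.1 gene table, used for names only. All tubulin members are named whatever their values, with the 3 nearest courses for TUB1 and TUB7 and, from the list of microtubule proteins, the 2 called genes of largest change per comparison; PFI, SPR1, KINESIN-13A and the SPIRAL1-like genes were named after their values were seen. The members and lists were chosen with earlier results of these data known. Protein and promoter sequences were not used here.

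Replicate numbers were checked as pairs by correlating deviations from group means. Same-number arrays correlated at 0.147 to 0.449 for 12 h and 24 h, 0.126 to 0.199 for 12 h and 48 h and 0.241 to 0.348 for 24 h and 48 h, so the numbers were read as pairs for these, from the data and the shared numbers. Against 0 h some lay below 0.1 (0.014 to 0.135 over all), and comparisons with 36 h had only 2 numbered pairs, since 1 title there carries no number. Alternatives were no filter, quantile normalization, centring on the median, an offset of 16, only the 2 times compared, the replicate block, array weights, an intensity trend with a robust prior, each array left out and, added after the data were seen, all arrays called replicate 3 left out.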

Additional observations from a re-analysis of the deposited data

How the results depend on the processing

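Each of the 70 changes of a tubulin gene (7 members in 10 comparisons of times) was recomputed under 15 alternatives, 1050 values in all. Direction and call stayed in 950, a call was lost in 33 and gained in 21, and the sign turned in 46, none of them a change that had been called. The log2 changes whose sign turned when 1 array was left out ranged as follows. TUA1 read -0.24 to 0.18 (12 to 24 h), -0.22 to 0.21 (12 to 36 h), -0.20 to 0.22 (12 to 48 h), -0.031 to 0.093 (24 to 36 h), -0.020 to 0.082 (24 to 48 h) and -0.058 to 0.059 (36 to 48 h). TUB5 read -0.12 to 1.16 (12 to 48 h) and -0.84 to 0.43 (36 to 48 h). TUA6 read -0.0045 to 0.46 (24 to 36 h), -0.16 to 0.30 (24 to 48 h) and -0.33 to 0.0029 (36 to 48 h). TUB1 read -0.050 to 0.46 (36 to 48 h). TUB7 read -0.15 to 0.30 (36 to 48 h). TUB9 read -0.17 to 0.072 (36 to 48 h). Quantile normalization gave TUA1 -0.070 (24 to 36 h), -0.024 (36 to 48 h) and -0.095 (24 to 48 h). Centring each array on its median gave TUB9 -0.023 (12 to 24 h), TUA1 -0.062 (24 to 36 h), -0.024 (36 to 48 h) and -0.086 (24 to 48 h), TUA6 -0.036 (24 to 48 h). The replicate block gave TUA1 -0.11 (36 to 48 h) and 0.074 (12 to 36 h), TUB1 -0.16 (36 to 48 h), TUB7 -0.072 (36 to 48 h). Array weights gave TUA1 -0.027 (36 to 48 h), 0.14 (12 to 36 h) and 0.11 (12 to 48 h), TUB7 -0.0040 (36 to 48 h), TUB5 -0.32 (12 to 48 h). Leaving out all arrays of number 3 gave TUB6 0.057 (0 to 12 h), TUA1 0.14 (12 to 24 h), -0.062 (36 to 48 h), 0.28 (12 to 36 h) and 0.21 (12 to 48 h), TUB1 -0.033 (36 to 48 h), TUB5 0.014 (36 to 48 h), TUB7 -0.18 (36 to 48 h), TUA6 -0.0017 (24 to 48 h). The causes were not tested.

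Of the counts of called members, that of 12 h against 0 h was 2 and became 4 without all arrays of number 3. From 12 to 24 h it was 0 and became 1 with an offset of 16 (TUB1) and 4 with array weights, which called 3320 probe sets in all against 220. From 24 to 36 h it became 2 with array weights (1946 in all against 20). From 24 to 48 h it was 1 and became 0 with no filter, with median centring and without number 3, and 2 with array weights. Other single calls changed as well. Array weights added TUA6 at 12 h against 0 h (adjusted p = 0.025) and TUB9 from 12 to 36 h (0.0364) and from 12 to 48 h (0.0481). TUB6 at 24 h against 0 h was gained with array weights (0.033), the intensity trend (0.0477) and without number 3 (0.0195). TUB5 lost its call against 0 h at 36 h with array weights, and at 36 h and 48 h without number 3. The 1 pair of neighbouring levels that differed became 2 with an offset of 16, with the intensity trend and with the replicate block, 4 without number 3 and 8 with array weights. When 1 array was left out, the counts against 0 h ranged from 2 to 4 at 12 h, 4 to 5 at 24 h and 5 to 6 at 36 h and 48 h. They were 0 in each later step of 12 h, 3 to 4 from 12 to 36 h and from 12 to 48 h, and 0 from 24 to 48 h.

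With the replicate block, fitted on the 14 numbered arrays, TUB6 at 24 h against 0 h was called (log2 change 0.73, adjusted p = 0.0301) and TUA6 from 12 to 36 h was not (1.01, adjusted p = 0.0649); the block changed no other call of a tubulin gene. It raised the probe sets called from 220 to 430 for 12 to 24 h, from 20 to 81 for 24 to 36 h and from 1143 to 1742 for 24 to 48 h. Over all alternatives the probe sets called ranged from 0 to 3320 for 12 to 24 h, from 0 to 1946 for 24 to 36 h and from 258 to 4498 for 24 to 48 h. They ranged from 1517 to 7402 for 12 to 36 h (3163 as reported) and from 2981 to 8010 for 12 to 48 h (4707). Array weights gave the highest in each; the count of 12 to 24 h was 0 without 12 h replicate 3 or 24 h replicate 1 or 2, that of 24 to 36 h without 36 h replicate 1 or 2, and both with only the 2 times compared. Of 357 repeats of the pair tests, 355 stayed on their side of the threshold, and 2 went past it (TUB1 with TUB7 and TUA6 with TUB9, each under 1 setting). Of 630 repeats of the called changes of other microtubule genes, 555 kept the call, 75 lost it and 0 turned. Signals near or under the filter's 30.7, as for TUB1 at 0 h, limit the size of folds.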
